A study of Mus musculus with 2 samples.

Results

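The Sox genes encode transcription factors that share a high-mobility-group box, a domain that binds the minor groove of DNA and bends it. They are sorted into subgroups by the sequence of that box, and different subgroups are known for work in neural, skeletal, neural crest and vascular cells. Levels of 10 Sox genes (Sox2, Sox4, Sox5, Sox6, Sox8, Sox9, Sox10, Sox11, Sox12 and Sox18) were compared between a Fut8+/+ and a Fut8-/- culture of mouse embryonic fibroblasts (MEFs), connective tissue cells of embryos kept in culture. The members were the probe sets whose annotated symbol is exactly 1 of these names. They gave 37 probe sets for 10 of the 18193 genes on the array.

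Fut8 encodes the enzyme that adds core fucose to N-glycans, and the Fut8-/- cells carry the disrupted gene on both alleles. Both cultures grew in the same serum-containing medium, and their total RNA was labelled with biotin for Affymetrix arrays. The design text of the series gives n = 3 per genotype, and 1 array of each genotype was analysed here, so no value below has a replicate check and no test of genotype could be made. The strain, the age of the embryos, the number of embryos behind a culture and any immortalisation are not stated in the labels.

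The brightest Fut8 probe set read 190.9 in the Fut8+/+ culture and 11.7 in the Fut8-/- culture, and the gene's other 2 probe sets were too dim on both arrays to give a ratio. Whether the bright probe set lies in the disrupted part of the gene is not stated in the labels. The cultures differed in sex-linked transcripts as well. Eif2s3y, on the Y chromosome, gave 7.06 in Fut8+/+ and 2845 in Fut8-/-, and the X-inactivation transcript Xist gave 656 and 15.2, so genotype and these differences between the cultures cannot be told apart. In RNA from a whole culture, fewer cells of a type and less RNA per cell cannot be told apart either. Of 20 fibroblast markers 16 were measured, 7 of them lower and 1 higher in Fut8-/- by 2-fold or more. Over all measured genes 8.45% were lower and 6.12% higher by as much. The summed signals of the 20 markers were 55321 and 43841. Vimentin (Vim) was bright on both arrays (11471 and 11111), whereas the mesenchymal homeobox gene Prrx1 was at least 17.9-fold lower (221 and 7.26). The part of these differences in the Sox values was not tested.

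Signals are given as deposited, the Fut8+/+ value first. Log2 ratios are Fut8-/- over Fut8+/+, after centring on the median ratio of the arrays (-0.22 on the log2 scale) and with scaled signals below a floor of 12.3 raised to that floor. Where 1 signal had to be raised, the fold is a lower bound. A gene was called measured where its brighter array reached a scaled signal of 39.1, and it was represented by its brightest probe set. The SD of the log2 ratio between probe sets of the same gene, where both signals exceeded the floor, was 0.40 (5389 genes), which is technical spread within this pair of arrays. Among those probe sets with a brighter array between 39.1 and 155, the SD was 0.45 (1007 genes).

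Of the 10 Sox genes 6 were measured. Sox2, Sox11 and Sox5 were at least 2-fold lower in Fut8-/-, Sox12 was at least 2-fold higher, and Sox4 and Sox9 lay within 2-fold. Among all 10164 measured genes 8.45% were at least 2-fold lower and 6.12% higher by as much. Genes higher in Fut8-/- made up 42.0% of those past 2-fold, and 25.7% without centring. Apart from Sox4, the measured Sox genes were dim, with a brighter array between 39.1 and 155 (the 60th and 75th percentiles). In that range 14.9% of 2755 genes were lower by 2-fold or more and 10.4% were higher, and 3 and 1 of the 5 dim Sox genes were. All 3 lower Sox genes reached 39.1 only through Fut8+/+ and lay below the floor in Fut8-/-, which alone places them past 2-fold. Among all measured genes at least 2-fold lower, of any brightness, 17.9% lay below the floor in Fut8-/-. The median log2 ratio of the 6 was -1.35, with 3 of them at their bound, beside 0.0008 over all measured genes. With 6 genes, these counts describe the members and show nothing particular to the family.

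**Figure D1:**
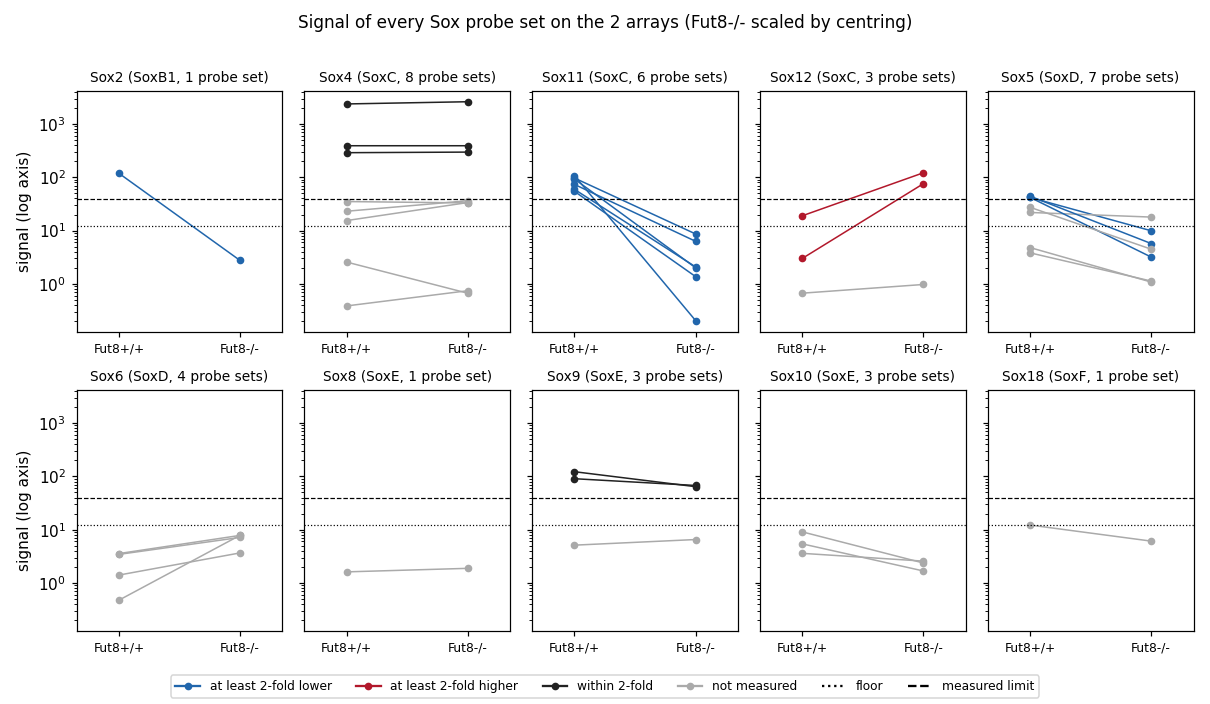
Signal of each of the 37 Sox probe sets on a log axis, 1 panel per gene, with the Fut8+/+ array at the left and the Fut8-/- array, scaled by centring, at the right; lines join the 2 values of a probe set, and colours give the direction. All 6 Sox11 lines and the Sox2 line run from above the measured limit of 39.1 to below the floor of 12.3, the 2 brighter Sox12 lines run upward, and the 3 brightest Sox4 lines are close to level.

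The SoxC genes Sox4, Sox11 and Sox12 encode activators of transcription known from neural and mesenchymal progenitors, and they went 3 different ways. Sox11 was above the floor only in Fut8+/+. Its 6 probe sets gave 96.7, 73.4, 92.7, 59.3, 54.4 and 107 on the Fut8+/+ array, and 7.42, 5.40, 1.72, 1.79, 1.18 and 0.176, in the same order, on the Fut8-/- array. Each probe set was lower in Fut8-/-, and every Fut8-/- value was below the floor once scaled. The brightest probe set by mean log2 signal was at least 7.83-fold lower in Fut8-/-, and the 6 bounds ran from 4.40-fold to 8.68-fold. Among genes with 5 or more measured probe sets, 2 of 232 (0.862%) had all of them at least 2-fold lower. They were Sox11 and the cyclin gene Ccnd2, the latter named after its values were seen. Every Sox11 probe set reached the limit of 39.1 only through Fut8+/+ and lay below the floor of 12.3 in Fut8-/-. These 2 settings alone place such a probe set past 2-fold lower, so the share is no support for the Sox11 difference. Probe sets of 1 gene read the same RNA and are no replicates.

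Sox12 went the other way. Its brightest probe set gave 18.9 in Fut8+/+ and 104 in Fut8-/-, a 6.41-fold higher level (log2 ratio 2.68). Its next probe set gave 3.00 and 65.0, at least 6.13-fold higher. The third was at 0.669 and 0.836, below the floor on both arrays, so it gave no ratio. Among 9908 genes measured above the floor on both arrays, of any brightness, 48 (0.484%) had a ratio as high as that of Sox12 or higher. Sox12 reached the measured limit only through Fut8-/-, the array where it is high. The share is therefore no support for the Sox12 difference.

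Sox4 was bright on both arrays and nearly level. Its 3 measured probe sets gave 2374, 390 and 289 in Fut8+/+, and 2244, 335 and 255 in Fut8-/-. Their log2 ratios were 0.14, 0.00002 and 0.04, smaller than the spread between probe sets of a gene. The sign of the first is not settled, since it was -0.08 without centring and -0.42 with each chromosome centred on its own genes. Of 5 dimmer Sox4 probe sets 3 lay between the floor and the measured limit, with log2 ratios of -0.09, 0.66 and 1.12, and 2 were below the floor on both arrays.

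Sox2, the SoxB1 member, is a factor of pluripotent cells and neural progenitors. Its only probe set gave 119 in Fut8+/+ and 2.36 in Fut8-/-, at least 9.60-fold lower. Sox2 lies within the long noncoding gene Sox2ot, whose own probe set was at 0.517 and 0.340, below the floor on both arrays. With a single probe set, the Sox2 difference has no second reading on these arrays.

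The SoxD genes Sox5 and Sox6 encode factors without an activation domain of their own that assist SOX9 in cartilage. Sox5 was low in Fut8+/+ and lower in Fut8-/-. Its 3 measured probe sets gave 41.9, 44.2 and 42.0 in Fut8+/+, just above the measured limit, and 8.53, 4.91 and 2.74 in Fut8-/-. The bounds were 3.39-fold, 3.58-fold and 3.40-fold lower. A dimmer probe set at 27.4 and 3.85 was at least 2.22-fold lower, and another at 21.9 and 15.4 had a log2 ratio of -0.29. The other 2 were under the floor throughout. With the floor raised to 39.1, the Sox5 log2 ratio was -0.10. All 4 Sox6 probe sets stayed under the floor in both cultures, at 0.476 to 3.56 in Fut8+/+ and 3.15 to 6.74 in Fut8-/-. The antisense gene Sox6os gave 14.7 and 1.40, below the measured limit.

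Sox9 is the SoxE factor that directs cartilage formation, and it was measured on both arrays. Its 2 measured probe sets gave 122 and 90.3 in Fut8+/+ and 55.0 and 57.9 in Fut8-/-, so each was lower in Fut8-/-. The log2 ratios were -0.93 and -0.42, each within 2-fold. The first passed 2-fold without centring (-1.15) and with each chromosome centred (-1.06). Of genes above the floor on both arrays, 7.87% had a ratio as low as that of Sox9 or lower. The remaining probe set was at 5.12 and 5.60. Sox8 (1.61 and 1.62) and the neural crest and glial factor gene Sox10, whose 3 probe sets lay between 1.44 and 9.10, were below the floor on both arrays.

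Sox18, the SoxF member known from blood and lymph vessel development, gave 12.2 and 5.24 at its only probe set, below the floor on both arrays. With the floor lowered to the 20th percentile, a signal of 3.38, Sox6 was 2.19-fold higher, Sox18 just past 2-fold lower and Sox10 at least 2.69-fold lower, but none of these genes reached the measured limit. Of the 37 probe sets of the family, 17 were measured, of which 10 were lower and 2 higher by 2-fold or more and 5 lay between. The lower ones were 6 of Sox11, 3 of Sox5 and 1 of Sox2, and both higher ones were of Sox12. They are repeated readings of 4 genes and do not count as separate members. Over all measured probe sets with 1 gene symbol, of any brightness, 8.16% were lower and 5.96% higher by that much. Each of the 10 lower Sox probe sets reached the measured limit only through Fut8+/+ and lay below the floor in Fut8-/-. The limit and the floor alone place such a probe set past 2-fold lower, so these counts are no support for a difference.

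Promoter sequences were examined because Sox2, Sox5 and Sox11 were lower together, while Sox12 was higher and Sox4 level. The 250 bases before 1 RefSeq start per gene are shown 5′ to 3′ on its strand (build GRCm38.p6), with matches to the searched motifs in capitals. These are 5 of the 7 members with a window. Those 7 members had 12 promoter entries, so a gene may have other starts that are not shown. Motifs were searched on both strands as the GC box GGGCGG, the CCAAT box CCAAT, the TATA box TATAAA and the SOX motif AACAAT.
Sox2 chr3:34649745-34649994 (plus strand): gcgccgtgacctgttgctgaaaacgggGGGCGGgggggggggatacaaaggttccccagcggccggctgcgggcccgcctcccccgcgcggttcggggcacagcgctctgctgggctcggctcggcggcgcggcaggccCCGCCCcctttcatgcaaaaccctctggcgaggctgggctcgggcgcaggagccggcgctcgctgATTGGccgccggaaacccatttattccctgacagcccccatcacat
Sox5 chr6:143947107-143947356 (minus strand): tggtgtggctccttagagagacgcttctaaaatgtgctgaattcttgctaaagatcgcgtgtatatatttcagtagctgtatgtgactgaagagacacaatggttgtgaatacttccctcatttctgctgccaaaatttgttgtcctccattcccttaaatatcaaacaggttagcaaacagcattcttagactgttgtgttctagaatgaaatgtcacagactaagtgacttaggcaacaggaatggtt
Sox11 chr12:27342719-27342968 (minus strand): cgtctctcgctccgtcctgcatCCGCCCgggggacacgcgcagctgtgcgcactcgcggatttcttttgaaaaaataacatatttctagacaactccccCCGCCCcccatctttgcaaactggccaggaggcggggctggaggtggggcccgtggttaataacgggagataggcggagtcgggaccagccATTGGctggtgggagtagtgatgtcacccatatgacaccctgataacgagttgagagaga
Sox12 chr2:152398047-152398296 (minus strand): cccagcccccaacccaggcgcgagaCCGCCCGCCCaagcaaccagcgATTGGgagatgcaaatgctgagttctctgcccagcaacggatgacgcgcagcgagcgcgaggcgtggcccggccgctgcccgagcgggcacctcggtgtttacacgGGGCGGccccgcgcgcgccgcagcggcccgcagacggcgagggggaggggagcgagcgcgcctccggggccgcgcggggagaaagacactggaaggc
Sox4 chr13:28953700-28953949 (minus strand): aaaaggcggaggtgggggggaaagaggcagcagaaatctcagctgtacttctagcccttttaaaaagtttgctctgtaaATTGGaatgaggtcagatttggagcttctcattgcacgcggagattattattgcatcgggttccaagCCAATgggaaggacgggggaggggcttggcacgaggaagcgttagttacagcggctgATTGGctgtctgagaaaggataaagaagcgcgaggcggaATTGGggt
In the Sox2, Sox11 and Sox12 windows 2, 2 and 3 GC boxes and 1 CCAAT box each were found, and 2 of the Sox12 GC boxes overlap. The Sox4 window had 4 CCAAT boxes and no GC box, and the Sox5 window matched none of the motifs. No window held the TATA or the SOX motif as spelled. Among 32536 windows of the same length before RefSeq starts, 33.0% held the GC box, 33.8% the CCAAT box, 12.3% the TATA box and 9.35% the SOX motif. The G and C share was 72% for Sox2, 58% for Sox11 and 74.4% for Sox12, against 50.8% for Sox4 and 39.6% for Sox5, with a median of 52.4% over all windows. The windows hold 27 CG pairs for Sox2, 17 for Sox11, 35 for Sox12, 11 for Sox4 and 3 for Sox5, with a median of 6. Of the 5 windows, that of Sox12, the higher gene, was the richest in CG pairs, followed by those of Sox2 and Sox11, both lower genes. The window of Sox4, the level gene, came next, and that of Sox5, also a lower gene, was the poorest.

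The chromosomal surroundings of each measured member were compared with its own ratio, using the 10 nearest measured genes on each side in the order of assembly GRCm38.p6. Sox2 and Sox11 had floored ratios below those of all 20 of their neighbours. Around Sox2 on chromosome 3 the 20 neighbours had a median log2 ratio of -0.0002, and 1 of them was at least 2-fold lower. Its nearest measured neighbours, Fxr1 and Atp11b, had ratios of 0.56 and -0.08, against -3.26 for Sox2. Around Sox11 on chromosome 12, which also carries Fut8, the median was -0.21, with 2 neighbours lower and 1 higher by 2-fold or more. The adjoining gene Cmpk2 had a log2 ratio of -0.89, within 2-fold, at its brightest probe set. Its other probe set, below the measured limit (26.4 and 20.5), had a log2 ratio of -0.15. The next measured gene, Rsad2, had -1.76, and Rps7 on the other side of Sox11 0.09. Over chromosome 12 as a whole, 361 measured genes gave a median of -0.38, against -2.97 for Sox11.

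Sox5 and Sox12 each adjoin a gene that was past 2-fold in the same direction. Bcat1, which encodes the cytosolic branched-chain aminotransferase, adjoins Sox5 on chromosome 6 with no protein-coding gene between them. Its brightest probe set gave 1313 and 324, a log2 ratio of -1.80 measured on both arrays. The -1.76 of Sox5 is a bound set by the floor, so their sizes cannot be compared. The other Bcat1 probe sets had log2 ratios of -1.52 and -0.92, the latter within 2-fold. Of the 20 neighbours of Sox5, 6 were at least 2-fold lower and 1 higher by as much (median -0.59). Over chromosome 6 as a whole, 11.6% of 492 measured genes were lower and 4.07% higher by as much (median -0.13). Zcchc3, a zinc finger gene, adjoins Sox12 on chromosome 2, also with no protein-coding gene between them. Its 2 probe sets gave 19.4 and 8.88 in Fut8+/+ and 93.1 and 35.3 in Fut8-/-, with a log2 ratio of 2.48 for the first, beside 2.68 for Sox12. On the other side of Sox12 the nearest measured gene was the stress gene Trib3, 4.43-fold lower (549 and 107), and the median over the 20 neighbours was 0.22. These neighbours were singled out after their values were seen.

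Sox4 lies on chromosome 13, where 377 measured genes had a median log2 ratio of 0.56 and 19.6% were at least 2-fold higher. Its 20 neighbours had a median of 0.67, with 5 higher and 0 lower by 2-fold or more, against 0.14 for Sox4. Sox9, on chromosome 11, had neighbours with a median of 0.04, of which 2 were lower and 1 higher by 2-fold or more. The nearest measured gene before it, Abca5, was 2.76-fold lower (304 and 94.7), with 4 protein-coding genes between them. The nearest after it, 2610035D17Rik, had a log2 ratio of 0.13.

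**Figure D2:**
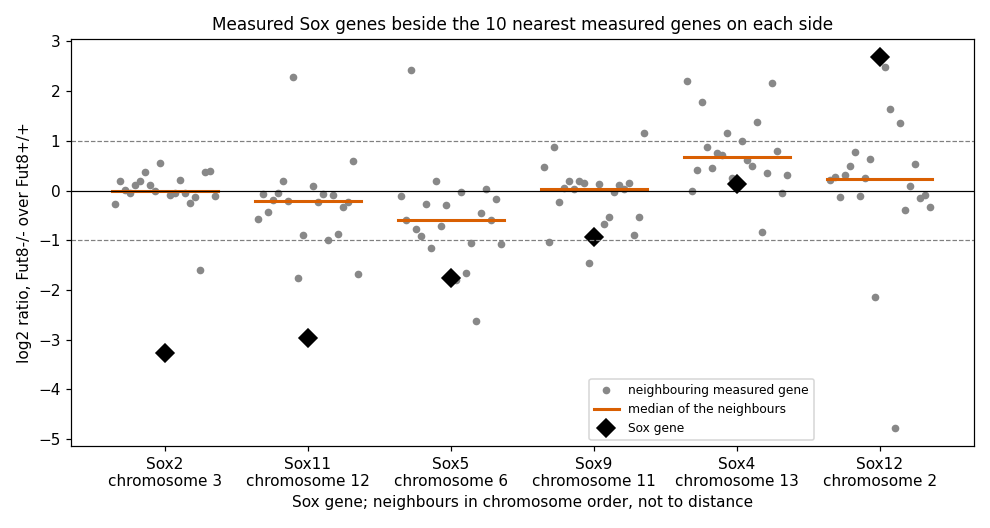
Log2 ratio (Fut8-/- over Fut8+/+) of the 6 measured Sox genes (diamonds) and of the 10 nearest measured genes on each side (grey points, in chromosome order and not to distance), with the neighbours' median as an orange line and 2-fold as dashed lines; values with 1 array at the floor are drawn at their bound. Sox2 and Sox11 lie below all of their neighbours, while Sox5, drawn at its bound, and Sox12 adjoin a gene past 2-fold in the same direction.

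Genes that Sox factors work with or act on were taken from lists by subgroup. Over all measured genes 8.45% were at least 2-fold lower and 6.12% higher by as much. With 3 to 9 measured genes in each of these lists, the counts only describe them. Whether these genes followed the Sox genes was not tested. Most members of the SoxC list were measured, and few of the other 4 lists were. In the SoxB1 list of neural and pluripotency genes 3 of 19 on the array were measured. Nestin (Nes), an intermediate filament gene of neural progenitors, was 4.77-fold lower (522 and 93.9), and the factor gene Klf4 was 3.80-fold lower (404 and 91.4). The fatty acid binding protein gene Fabp7 was at least 4.96-fold higher (1.73 and 52.6). Pou5f1 (0.935 and 11.8), whose product partners SOX2 in pluripotent cells, and Nanog (11.5 and 9.41) were not measured.

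In the SoxC list 9 of 12 were measured, 2 of them lower and 0 higher by 2-fold or more (median -0.19). The neuronal tubulin gene Tubb3, a known SOX11 target, was 3.86-fold lower (100.4 and 22.4), and the hedgehog effector gene Gli2 was 2.36-fold lower (228 and 83.1). Tead2, another known SoxC target, had a log2 ratio of -0.52 (614 and 369), and stathmin (Stmn1) 0.19. In the cartilage list of SoxD and SoxE targets 5 of 25 were measured and all 5 lay within 2-fold, from -0.76 for Nfatc1 to 0.67 for Trps1. The defining genes Col2a1 (2.87 and 2.85) and Acan (1.80 and 15.0) were not measured, and 0 of 11 chondrocyte markers were.

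Of the SoxE list of neural crest, glial and melanocyte genes 6 of 21 were measured. The paired box gene Pax3 was 8.66-fold higher (13.7 and 102) and the peripheral myelin gene Pmp22 2.77-fold higher (686 and 1630), whereas the zinc finger gene Snai2 was 2.89-fold lower (2219 and 659). Mitf, a melanocyte target of SOX10, had a log2 ratio of -0.88 (120 and 55.8). In the SoxF list 5 of 23 were measured, with 2 at least 2-fold lower. They were the adhesion gene Vcam1, 3.90-fold lower (1369 and 302), and Gata2, 3.14-fold lower (133 and 36.2), while the endothelial genes Pecam1 and Cdh5 were not measured.

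The remaining genes of the family were dim. Of 10 other genes of the family, Sry among them, only Sox21, a SoxB2 gene, was measured, at 79.1 and 37.0 with a log2 ratio of -0.88. Sox13, the third SoxD gene, gave 3.24 and 26.8, below the measured limit. Sry was below it on both arrays at both probe sets, also in the culture with Y-linked transcripts.

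**Figure D3:**
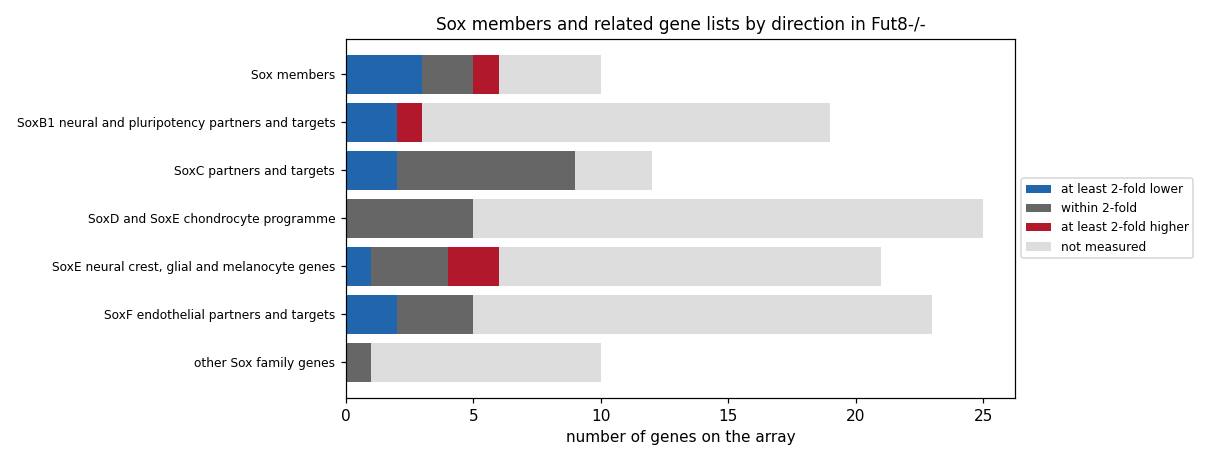
Number of genes on the array in each list, split by direction in Fut8-/-: blue at least 2-fold lower, dark grey within 2-fold, red at least 2-fold higher and light grey not measured. Of 25 genes in the cartilage list 20 were not measured, whereas 9 of 12 SoxC partners and targets were.

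Some markers of every other cell group except chondrocytes were measured. Over all measured genes 8.45% were at least 2-fold lower and 6.12% higher by as much. Of neural and glial markers 6 of 14 were measured, with 3 lower and 2 higher by 2-fold or more, and summed signals of 1511 and 595. The lower ones were Nes, Tubb3 and the adhesion gene Ncam1 (728 and 238), and the higher ones Fabp7 and the glutamate transporter gene Slc1a3 (17.0 and 68.5). Pax6 (24.0 and 11.3), Olig2 (0.997 and 1.62) and Gfap (16.8 and 1.57) were not measured on either array. Summed signals were 262 and 160 for 9 Schwann cell and melanocyte markers (3 measured), 103 and 91.0 for 11 chondrocyte markers, 433 and 278 for 12 endothelial markers (2 measured) and 472 and 492 for 15 epithelial markers (6 measured). The near-equal epithelial sums hold 3 markers higher and 2 lower by 2-fold or more. Keratin 19 (Krt19) was at least 14.6-fold higher (2.08 and 155), the desmosome gene Dsp at least 6.70-fold and Perp at least 7.10-fold higher, whereas the plakophilin gene Pkp1 was at least 18.4-fold lower (227 and 6.69) and Epcam 2.43-fold lower. Of 10 pluripotency markers only Esrrb was measured, 2.47-fold higher (16.6 and 35.2), and the sums of the list were 84.1 and 154. No cell type was assigned to the cultures from these markers, and whether such cells were present and had a part in the Sox2 and Sox11 values was not tested.

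Under the 4 alternatives that rescale the ratios (no centring, quantile, loess and centring by chromosome), Sox2, Sox11 and Sox5 were at least 2-fold lower and Sox12 at least 2-fold higher, as reported. A floor cannot turn a sign, and a filter leaves a gene's own ratio as it is; with the filter at the 75th percentile none of these 4 genes was measured. The size of the bounds followed the floor. Sox2 ran from -5.13 with the floor at the 20th percentile to -1.60 with the floor at the 60th, Sox11 from -3.48 to -1.30, and Sox12 was lowest with the 60th percentile floor at 1.63. With that floor Sox5 came to -0.10 and was no longer past 2-fold.

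**Figure D4:**
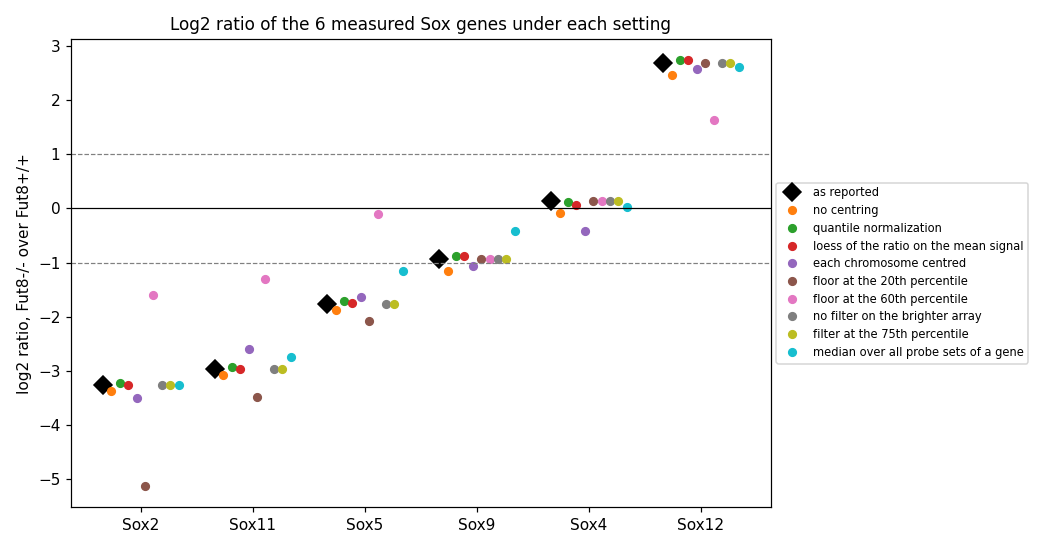
Log2 ratio (Fut8-/- over Fut8+/+) of the 6 measured Sox genes as reported (black diamonds) and under each of 9 alternative settings (coloured points), with dashed lines at 2-fold; values with 1 array at the floor are drawn at their bound. Sox2 and Sox11 stay below -1 and Sox12 above 1 in every setting drawn, Sox5 comes to -0.10 with the floor at the 60th percentile, and Sox9 crosses 2-fold in 2 settings.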

How the data were processed

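Signals of 45101 probe sets on 2 arrays, 1 per genotype, were analysed. Per the submitters' processing notes the deposited intensity values were made by the authors with GCOS, the Affymetrix operating software; no version, scaling target or detection call is stated there. Values are linear, with medians of 20.5 (Fut8+/+) and 16.9 (Fut8-/-). Scale and centring therefore stay unknown beyond this.

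Log2 ratios were centred on the median of those probe sets that exceeded each array's 40th percentile, which multiplies Fut8-/- signals by 1.16. Scaled signals were then floored at the pooled 40th percentile (12.3), and genes needed the pooled 60th (39.1) on the brighter array. Names came from the platform annotation. Of all probe sets 34945 had 1 gene symbol and were used, 932 had several, 9160 had none and 64 were controls. A gene took the probe set with the highest mean log2 signal. Named genes were all members, up to 4 measured genes past 2-fold in each list, and defining genes; others were chosen with values in view. The members and lists were chosen with earlier results of these data known. Chromosomes and gene order came from assembly GRCm38.p6; the files name no build, so only the RefSeq promoter windows carry coordinates. RefSeq promoter windows were found for 7 of 10 members. Steps were tested on simulated data and run with Python 3.11.15, NumPy 2.4.6 and pandas 2.3.3. With 1 array per genotype no test was made, and the number of arrays limits the precision. Alternative settings were quantile normalization, no centring, a loess fit (span 0.4), centring by chromosome, floors at the 20th and 60th percentile, no filter, a filter at the 75th percentile and the median over probe sets.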

Additional observations from a re-analysis of the deposited data

How the results depend on the processing

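No paired analysis was possible because each genotype has 1 array. The counts of Sox genes at least 2-fold lower (3) and higher (1) stayed at 2 to 4 and at 1 under 8 of the 9 alternatives. With the filter at the 75th percentile only Sox4 was measured, and both counts were 0 and the median log2 ratio was 0.14, of the other sign, since the 5 dimmer genes were left out. That filter also left 336 higher and 448 lower genes of 7409 in all, beside 622 and 859 of 10164. The median of the Sox genes, -1.35 as reported, was -0.52 with the floor at the 60th percentile, 0 without a filter, where the 4 genes below the floor on both arrays enter at 0, and -0.78 with the median over probe sets. It lay between -1.51 and -1.30 under the other 5. Sox5 was -1.15 and Sox9 -0.42 with the median over probe sets. The 4 genes below the floor on both arrays have no ratio to recompute at the reported floor. All Sox genes other than Sox4 had signals below the 75th percentile (155), where single readings are least precise, and no second array of either genotype was analysed here.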

Other observations

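A pair of genes near Sox12 on chromosome 2, noticed after the values were seen, differed in opposite directions. Mcts2, an imprinted retrogene that lies within an intron of H13, gave 732 in Fut8+/+ and 23.0 in Fut8-/- (log2 ratio -4.77, 27.3-fold lower). H13, which encodes a signal peptide peptidase, gave 561 and 1498 at its brightest probe set (3.11-fold higher), and its probe sets differed in sign, with 80.7 and 5.44 at another (at least 6.54-fold lower). On chromosome 6, Sspn, which encodes sarcospan and is among the 10 nearest measured genes after Sox5, was 6.22-fold lower (387 and 53.5).

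Ccnd2, the D-type cyclin gene that shared with Sox11 the property of having all measured probe sets at least 2-fold lower, had 7 of them. The brightest gave 2854 and 440.4, 5.57-fold lower, and the folds of the others ran from at least 4.04 to 8.14.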
